A study of Bos taurus with 28 samples.

Results

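CHI3L1, the gene of a secreted chitinase-like glycoprotein, varied widely between the mammary glands of lactating dairy cows, and the glands at the ends of its range were compared. A gland was called CHI3L1-high where the deposited log2 value of its only probe set exceeded 2, and CHI3L1-low where it was below -2. AA 2 and AA 9, a pair of arrays that stood apart from the rest of the series and had CHI3L1 values of 2.83 and 3.42, were left out. This gave 3 high glands (KK 3, KA 2 and KA 9) and 5 low glands (AA 1, KA 1, KA 4, KA 7 and KA 11), 8 of 28 in all. The members were thus chosen by their measured CHI3L1 values. A further 18 glands lay between the thresholds and served as samples that the choice of groups had not used.

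The study took surgical biopsies of mammary tissue from 28 Holstein-Friesian cows in mid-lactation, all on a control diet of silage and concentrates. It asked how the DGAT1 genotype goes with gene expression in the gland. DGAT1 encodes an enzyme of the last step of triacylglycerol synthesis, and K and A stand for lysine and alanine at its variable residue, so that cows were AA, KA or KK. Gene expression was read from total RNA on the Affymetrix Bovine Genome Array, which is single-colour and carries short oligonucleotides. Each cow gave 1 array, so the spread between arrays holds both animal and technical variation. No cow was treated or infected by design, and the high and low glands differ in a measured value, not in an assigned condition.

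CHI3L1, also known as YKL-40, binds chitin and other sugars without cleaving them. Macrophages, neutrophils and epithelial cells secrete it during inflammation and tissue remodelling, and in ruminants it is known from the secretion of the drying-off gland. Proteins reported to bind it include the receptor TMEM219, the hyaluronan receptor CD44, galectin 3, integrins and the receptor for advanced glycation end products. The lactating gland itself consists mainly of secretory luminal epithelium that makes caseins, lactose and milk fat, surrounded by myoepithelium, fibroblasts, vessels, fat cells and resident leukocytes.

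The CHI3L1 values of the high glands were 2.16 in KK 3, 3.70 in KA 2 and 2.05 in KA 9. Those of the low glands were -3.22 in AA 1, -2.59 in KA 1, -2.58 in KA 4, -2.93 in KA 7 and -2.55 in KA 11. Every value is on a log2 scale with 0 set separately for each probe set, which lets glands be compared but not genes. Just past the high threshold lay KA 9 and KK 3, and the low gland nearest its threshold was KA 11 at -2.55. Just short of the thresholds lay KA 5 at 1.97, AA 7 at 1.89 and KK 1 at -1.95. These values chose the groups and are a description. The classes crossed the genotypes: of 9 AA cows in use 0 were high and 1 was low, of 13 KA cows 2 were high and 4 low, and of 4 KK cows 1 was high and 0 were low. The CHI3L1 median was 0.95 in AA, -0.72 in KA and 0.13 in KK.

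**Figure D1:**
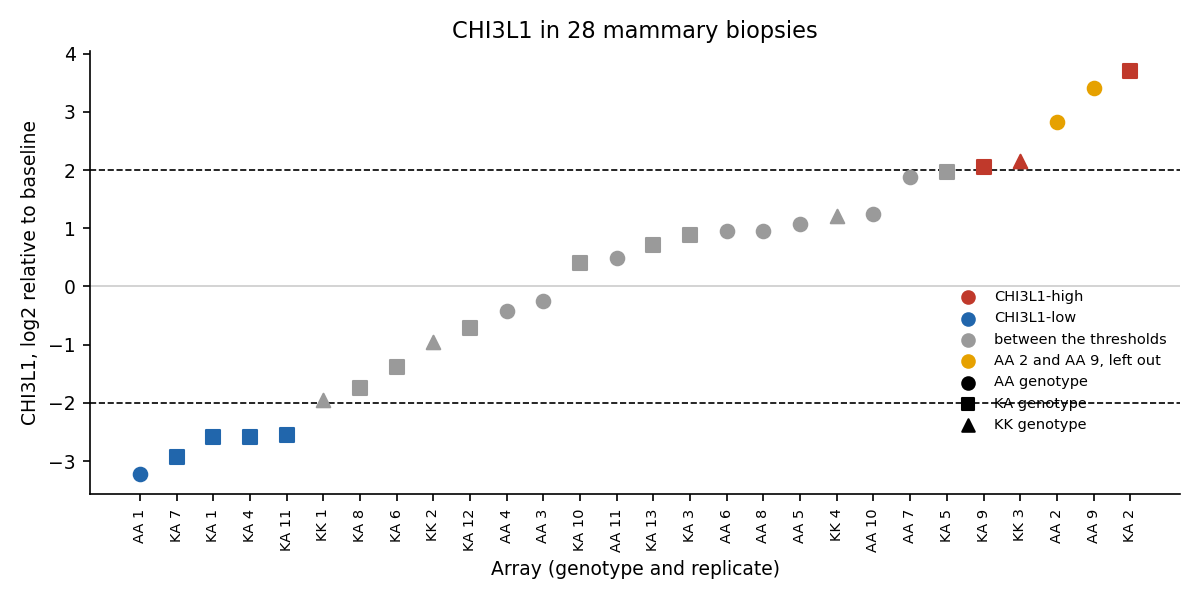
CHI3L1 log2 value relative to the probe set's baseline (vertical axis) in each of the 28 biopsies, in order of the value (horizontal axis: genotype and replicate). Dashed lines mark the thresholds at 2 and -2, and the 3 red and 5 blue points are the glands compared, from -3.22 in AA 1 to 3.70 in KA 2.

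The arrays of the 8 glands had similar spreads. The SD over probe sets ran from 0.25 to 0.31 in the high glands and from 0.25 to 0.34 in the low glands, against 0.86 in AA 2 and 0.78 in AA 9. The 3′ minus 5′ difference of the GAPDH and actin controls, a sign of RNA degradation, overlapped between the groups (exact two-sided permutation p = 0.589). The level class of a probe set (bright, intermediate or dim) was read from the rounding steps of the values. The array median over the 6460 dim probe sets ran from -0.08 to -0.03 in the high glands and from 0.03 to 0.10 in the low glands, a difference of -0.10 in mean (exact two-sided permutation p = 0.0179, the smallest that 56 regroupings allow). Over the bright probe sets the array median ran from 0.02 to 0.04 in the high and from -0.13 to -0.001 in the low glands (exact two-sided permutation p = 0.0357). Array-wide signal thus moved with CHI3L1, and its part in the differences below was not tested beyond a fit that holds the dim median as a covariate.

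**Figure D2:**
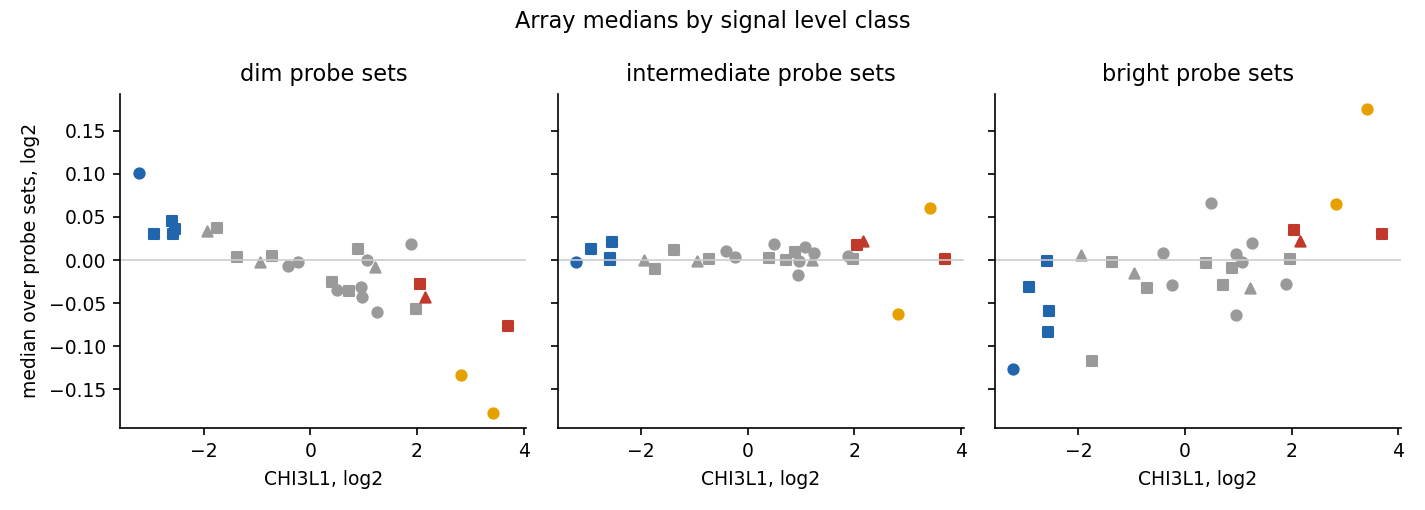
Median log2 value over dim, intermediate and bright probe sets (vertical axes) of each array against its CHI3L1 log2 value (horizontal axes). Red points are high, blue low, grey between the thresholds and orange the pair left out, and circles, squares and triangles are AA, KA and KK. The dim medians of the high glands, -0.08 to -0.03, lie below those of the low glands, 0.03 to 0.10.

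High and low glands differed in many genes, among them SAA3, CLU, CFB and C3, which were higher in the high glands. Of 24015 probe sets, 3444 (14.3%) passed an adjusted p of 0.05 in limma (Benjamini-Hochberg), 1832 of them higher (7.63%) and 1612 lower (6.71%) in the high glands. At the level of genes, each represented by 1 probe set, 1422 of 9154 (15.5%) passed, 909 higher (9.93%) and 513 lower (5.6%). Every high gland lay above every low gland in 10.7% of probe sets and 13.9% of genes, and below in 12.1% of probe sets and 9.82% of genes. The count rested on single cows. It was 873 probe sets without KA 2, the gland with the highest CHI3L1, 1622 without KK 3, 2039 without AA 1, and between 2366 and 3347 without each of the other 5. With the dim median of each array as a covariate, a setting added after the data were seen, 0 probe sets passed in limma, 1829 had an unadjusted p under 0.05 (7631 without the covariate) and the smallest adjusted p was 0.231. In whole tissue, fewer cells of a type and less RNA per cell cannot be told apart.

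The 18 glands between the thresholds gave the same question in other cows. There the slope of each probe set on the CHI3L1 value, in log2 per log2 unit of CHI3L1, passed an adjusted p of 0.05 in limma in 526 probe sets (2.19%), 388 with a positive slope (1.62%) and 138 with a negative one (0.575%). Of genes, 250 passed (2.73%), 207 with a positive slope (2.26%) and 43 with a negative one (0.47%). The rises shared 208 probe sets, which are 11.4% of those higher in the high glands and 53.6% of those with a positive slope, and the falls shared 46, which are 2.85% and 33.3%. No probe set passed in opposite directions. The slope count also rested on single cows: it was 96 without KK 1, 150 without KA 5, 150 without KA 8, 288 without KK 2, 345 without KA 12, 350 without AA 8 and 1095 without AA 7. With the dim median as a covariate 9 probe sets passed, all with positive slopes, and 7 of them carry a gene name with a known product: CLU, SAA3, S100A2, LGALS3, CFI, CD68 and SCIN.

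Groups of genes were described by lists, and 437 genes of these lists were measured. Of them, 86 passed in the comparison of high with low glands, 60 higher and 26 lower. In 76 of the 86 the groups did not overlap, which the call itself favours, so it adds no support. Among all genes, called or not, every high gland lay above every low gland in 13.9% and below in 9.82%. In the glands between the thresholds, 79 of the 86 had a slope of the same sign, and 21 passed there too. Over all probe sets called, 92.2% of those higher had a positive slope and 92.9% of those lower a negative one, against 45% positive and 55% negative among all tested. The dim median moved with CHI3L1 in both sets of glands (r = -0.62 in the 18 between). The part of this array-wide signal in the shared signs was not tested. The call held without each of the 8 glands in turn for 16 genes: SAA3, CLU, C3, CFB, CFI, C1S, NFKBIZ, NFKBIA, CXCL14, LAPTM5, LGALS3, KIT, IGF1, IFIT2, IL13 and GPX2. Without KA 2 only 21 of the 86 were called, without KK 3 and without AA 1 47 each, and without KA 9 48. Of the 437 list genes 60 were called higher and 26 lower, beside 9.93% and 5.6% of all genes. The share of list genes called lower was thus near that of all genes. Each gene was counted by 1 probe set. In 4 of the called genes, NFKBIZ, NFE2L2, COL6A1 and MASP2, another probe set passed in the opposite direction, and in 13 list genes without a call another probe set passed. In per-gland values below, the high glands are in the order KK 3, KA 2, KA 9 and the low glands in the order AA 1, KA 1, KA 4, KA 7, KA 11.

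**Figure D3:**
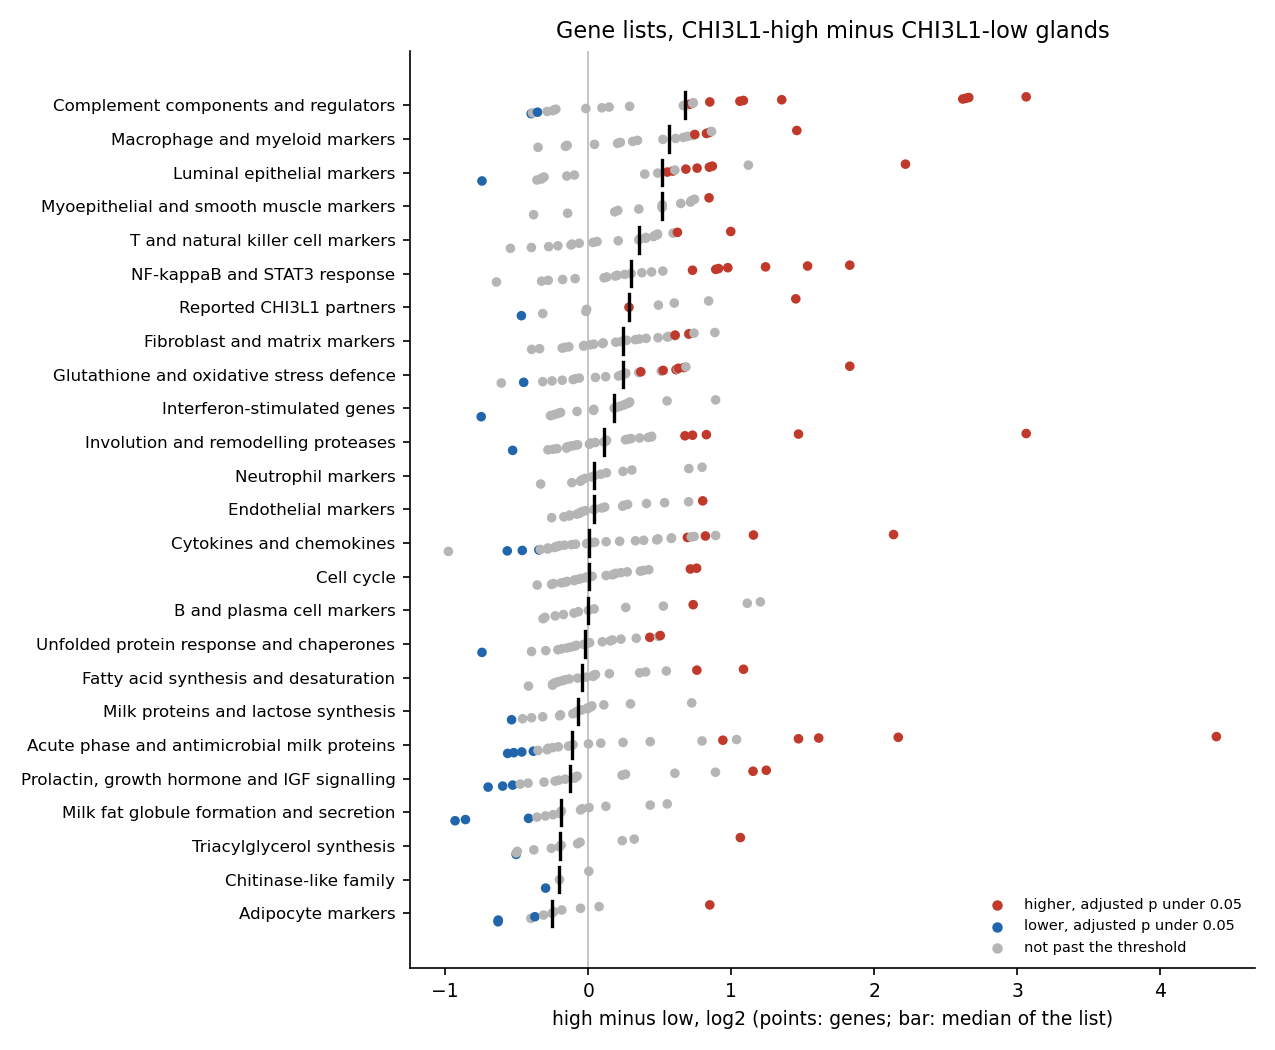
Difference between high and low glands in log2 (horizontal axis) for every measured gene (points) of 25 lists (vertical axis), with the median of each list as a black bar. Complement genes have the highest median, 0.68, and SAA3, at 4.39, is the point farthest to the right.

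Of the chitinase-like family, 3 genes besides CHI3L1 were measured, and they did not rise with it. OVGP1, an oviduct glycoprotein of the same fold, was lower in the high glands by -0.30 (SE 0.08, adjusted p = 0.0214), a call that was lost without KK 3 and without KA 2 (adjusted p = 0.104). The difference was -0.20 (SE 0.13, adjusted p = 0.308) for CHIA, an acidic chitinase, and 0.004 (SE 0.12, adjusted p = 0.984) for CHID1. Neither passed.

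Among 9 measured genes of reported CHI3L1 partners, galectin 3 was the one that tracked CHI3L1 most closely. LGALS3, a sugar-binding lectin that macrophages and epithelia make, stood at 0.41, 0.24 and 0.66 in the high glands and at -1.59, -0.87, -0.85, -0.82 and -0.96 in the low glands. The groups did not overlap, and AA 1 lay below the other low glands. The difference was 1.45 (SE 0.35, adjusted p = 0.01), and the slope in the glands between was 0.43 (SE 0.05, adjusted p = 0.000275). ITGB5, an integrin chain, was higher (0.28, SE 0.09, adjusted p = 0.0323, and 0.74, adjusted p = 0.0306, by its second probe set), and AGER, the receptor for advanced glycation end products, was lower (-0.47, SE 0.16, adjusted p = 0.0475), while its second, dim probe set did not pass (-0.20). ITGB5 lost its call without each of 6 glands and AGER without each of 7, with adjusted p up to 0.105 and 0.14 without KA 2. CD44 did not pass, although every high gland (-0.13, 0.11 and 0.16) lay above every low gland (-0.67, -0.23, -1.23, -1.39 and -0.46), with a difference of 0.84 (SE 0.31, adjusted p = 0.0651). The differences of the signalling receptor TMEM219 (-0.02) and of the proteoglycan HSPG2 (-0.01) were near 0, and neither passed. In all, 2 of 9 partners were higher and 1 lower (22.2% and 11.1%, against 9.93% and 5.6% of all genes). Their median was 0.28 against 0.03 over all genes. The count higher was 1 without KK 3, KA 2, KA 9, AA 1 or KA 4 and 4 without KA 1, and the count lower was 0 without each gland but KA 4.

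The acute phase protein SAA3 had the largest rise among the list genes. SAA3, which the mammary epithelium secretes into milk in mastitis, stood at 1.92, 2.62 and 1.70 in the high glands. In the low glands it stood at -1.72, -1.85, -2.49, -2.87 and -2.64. All high glands lay far above all low glands, and the difference of 4.39 (SE 0.73, adjusted p = 0.0022) is a 21-fold one. SAA3 differed by 4.05 within the lower array numbers (2 high and 2 low glands) and by 4.37 within the upper ones (1 high and 3 low). Among KA cows (2 high and 4 low) it differed by 4.62. These splits reuse the same glands. The slope in the glands between was 0.91 (SE 0.11, adjusted p = 0.000305), and with the dim median as a covariate it was 0.97 (adjusted p = 0.00954). The high-minus-low difference under that covariate was 2.99 (SE 0.97) and did not pass.

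Other acute phase and antimicrobial genes were split. HP, haptoglobin, which binds free haemoglobin, stood at 1.37, 2.51 and 1.53 in the high and at -0.48, -0.40, -0.43, -0.35 and -0.16 in the low glands (2.17, SE 0.68, adjusted p = 0.0335). HP lost its call without each of KK 3, KA 2, KA 9, AA 1 and KA 4, with adjusted p up to 0.159. LTF, lactoferrin, the iron-binding protein of milk, stood at 0.13, 0.97 and 0.89 against -2.22, -0.22, -0.43, -0.96 and -0.18 (1.47, SE 0.45, adjusted p = 0.0296), and its second probe set was higher by 2.49 (adjusted p = 0.0157). LTF lost its call without KA 2, KA 9 or AA 1 (adjusted p up to 0.127). LBP, which carries lipopolysaccharide, and CP, the copper-carrying ceruloplasmin, were higher by 1.61 (adjusted p = 0.0289) and 0.94 (adjusted p = 0.0273), and each lost its call without KA 2 (adjusted p = 0.23 and 0.122) and without AA 1, LBP also without KA 1 and CP also without KK 3. The 2 other CP probe sets differed by 0.09 each and did not pass (adjusted p = 0.703 and 0.759). The cathelicidins CATHL5, CATHL4 and CATHL1, antimicrobial peptides of neutrophil granules, were lower by -0.52, -0.46 and -0.56, and CATHL5 and CATHL1 are in the dim class whose medians were lower in the high glands. CATHL5 lost its call without KA 2 and CATHL4 without KK 3 or KA 9. CATHL1 lost its call without KK 3, KA 2, KA 9, AA 1 or KA 11. The remaining lower gene was TF, whose call was lost without KK 3, KA 2, AA 1, KA 4 or KA 11. Of 24 genes, 5 were higher and 4 lower (20.8% and 16.7%, against 9.93% and 5.6% of all genes), with a median of -0.11. Without KA 2 the counts were 1 and 1, without AA 1 1 and 2, without KK 3 3 and 1 and without KA 9 3 and 2. In the glands between, 2 of 24 had a positive slope that passed, SAA3 and LTF, and 0 a negative one (0 also at an unadjusted p under 0.05).

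Of 24 complement genes, 9 were higher and 2 lower in the high glands (37.5% and 8.33%, against 9.93% and 5.6% of all genes). Their median difference was 0.68 against 0.03 over all genes. CLU, clusterin, which restrains the membrane attack complex and is a chaperone abundant in the regressing gland, stood at 1.89, 2.26 and 1.21 in the high and at -2.17, -1.34, -1.02, -0.94 and -0.92 in the low glands. The groups lay far apart, and the difference was 3.06 (SE 0.53, adjusted p = 0.00259), an 8.36-fold one. CLU had the steepest fit to CHI3L1 relative to its error in the glands between, with a slope of 0.70 (SE 0.04, adjusted p = 1.99e-08) that was 0.63 (adjusted p = 5.86e-06) with the dim median as a covariate.

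The components of the alternative pathway followed. CFB, complement factor B, stood at 1.34, 2.94 and 1.41 in the high and at -1.00, -0.55, -0.85, -0.46 and -0.94 in the low glands (2.66, SE 0.52, adjusted p = 0.00404). C3, the central component, stood at 1.32, 2.21 and 1.78 against -2.23, -0.17, -0.66, -1.40 and 0.10 (2.64, SE 0.48, adjusted p = 0.0027). CFI, the protease that inactivates C3b, stood at 1.41, 0.97 and 0.25 against -1.91, -1.24, -1.73, -1.91 and -1.93 (2.62, SE 0.58, adjusted p = 0.00745). In each of these genes the lowest high gland exceeded the highest low gland. Both other C3 probe sets were also higher, by 2.61 (adjusted p = 0.00606) and 1.81 (adjusted p = 0.0037). The slope in the glands between passed for CFB (0.56, adjusted p = 0.00522) and CFI (0.70, adjusted p = 0.00132) and not for C3 (0.26, SE 0.11, adjusted p = 0.214).

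Of the classical pathway, the protease C1S was higher by 1.08 (SE 0.25, adjusted p = 0.00806) and held its call without each gland in turn. C1R, C4A and the inhibitor SERPING1 were higher by 0.71, 1.35 and 1.06, and lost their calls without KA 2 and other glands. The lectin pathway protease MASP2 and the terminal component C9 were lower by -0.40 and -0.35, calls that were also lost without KA 2. Of the 3 other MASP2 probe sets 1 was higher (0.59, adjusted p = 0.03) and the remaining pair did not pass, so its probe sets disagree. The counts were 5 higher and 0 lower without KA 2, with 6 and 1 both without KA 9 and without AA 1. Slopes passed in 6 of 24 genes, all positive: CLU, CFB, CFI, C1S, C4A and SERPING1. C4BPA, a fluid phase inhibitor of complement outside the list and named after its value was seen, had the largest rise of the 24015 probe sets tested, at 4.44 (adjusted p = 0.0063), and its slope in the glands between was 0.89 (adjusted p = 0.0157).

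**Figure D4:**
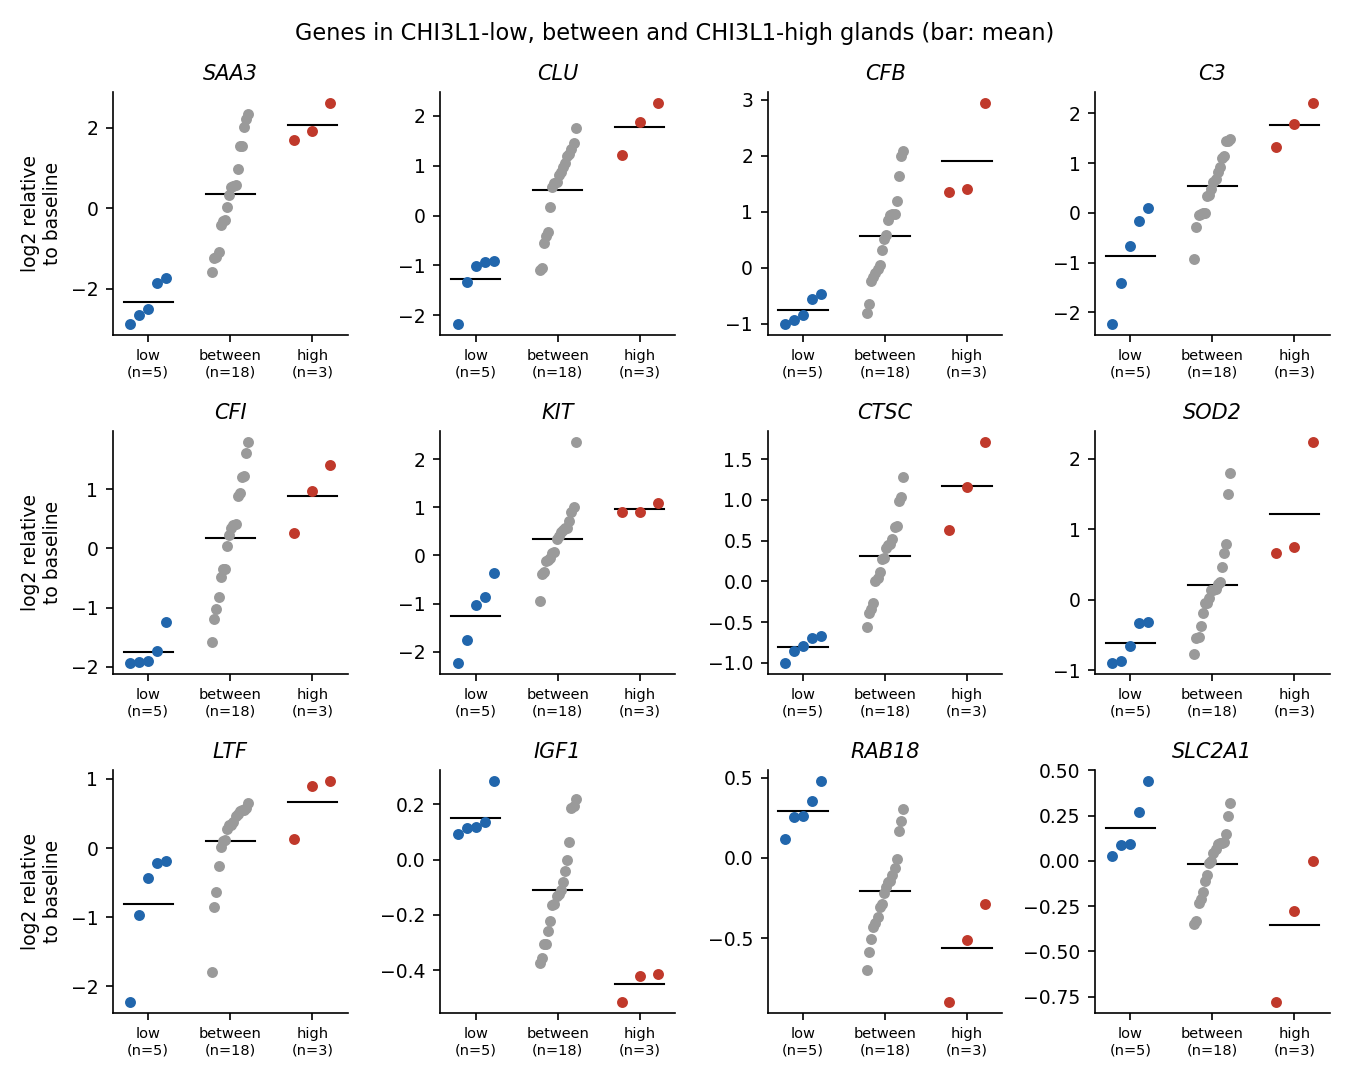
Log2 values relative to baseline (vertical axes) of 12 genes in the 5 low (blue), 18 between (grey) and 3 high (red) glands, with group means as bars and points of a group spread sideways in order of value. SAA3, CLU, CFB, C3 and CFI separate high from low glands without overlap, and IGF1, RAB18 and SLC2A1 do so in the opposite direction.

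Response genes of NF-kappaB, the main inflammatory transcription factor, and of STAT3 were higher in 7 of 21 cases (33.3%, against 9.93% of all genes). None was lower (0 also at an unadjusted p under 0.05), and the median was 0.30. NFKBIZ, a nuclear co-factor that NF-kappaB induces, stood at 0.59, 1.05 and 0.73 in the high and at -0.59, -0.62, -0.10, -0.65 and -0.28 in the low glands (1.24, SE 0.20, adjusted p = 0.0022), while its second probe set, whose name marks it as shared by several transcripts, was lower by -0.43 (adjusted p = 0.029). NFKBIA, the inhibitor that NF-kappaB induces as feedback, was higher by 0.98 (SE 0.23, adjusted p = 0.0094). SOD2, the mitochondrial superoxide dismutase, stood at 0.66, 2.24 and 0.76 against -0.89, -0.33, -0.31, -0.87 and -0.65 (1.83, SE 0.43, adjusted p = 0.00935), a call lost without KA 2 (1.32, adjusted p = 0.0919). The immediate early gene FOS was higher by 1.53 (SE 0.37, adjusted p = 0.0106), which was also lost without KA 2 (adjusted p = 0.0759), and its slope in the glands between was -0.08 (adjusted p = 0.754). The second FOS probe set was higher by 3.14 (adjusted p = 0.0089). CEBPD, VCAM1 and JUNB were the other rises, and with each of the 8 glands left out in turn they held their calls in 4, 3 and 2 fits. The other CEBPD probe sets did not pass (0.71, adjusted p = 0.0557, and 0.09, adjusted p = 0.669). Without KA 2 the count was 2, and without AA 1 and without KA 7 it was 4 each. No slope of the 21 passed in limma in the glands between, where 11 were positive and 0 negative at an unadjusted p under 0.05.

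Of 36 cytokine and chemokine genes 4 were higher and 3 lower (11.1% and 8.33%, against 9.93% and 5.6% of all genes), with a median of 0.01. CXCL14, a chemokine that epithelium makes constitutively, stood at 0.32, 0.21 and 0.23 in the high and at -1.65, -0.40, -1.19, -0.56 and -0.71 in the low glands (1.16, SE 0.27, adjusted p = 0.0094). IL13, a type 2 cytokine, was lower by -0.57 (SE 0.13, adjusted p = 0.00925), and its second, dim probe set did not pass (-0.11). IL18, CXCL5 and CXCL16 were higher by 0.82, 2.14 and 0.69 and lost their calls without each of 6 glands. For CXCL5, which attracts neutrophils, KA 9 at 2.79 stood above KK 3 at 0.12 and KA 2 at 0.45, and the difference without KA 9 was 1.30 (adjusted p = 0.267). CSF1 and LTA were lower by -0.46 and -0.35, and lost their calls without KK 3 or KA 2, and a second CSF1 probe set did not pass (0.16). Over single glands left out, the counts ran from 1 higher and 1 lower without KA 2 to 5 higher and 3 lower without KA 1. The higher count was 1 without KA 9, AA 1 or KA 4 and 2 without KA 7 or KA 11, and the lower count was 1 without KK 3 and 5 without KA 7. The pyrogenic cytokines IL1B (-0.23), TNF (-0.17) and IL6 (-0.28), named after their values were seen, did not pass and overlapped between the groups. Slopes passed for 2 of 36 genes, IL18 (0.31, adjusted p = 0.00486) and CXCL5 (0.65, adjusted p = 0.0328).

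Interferon-stimulated genes included 1 fall (5.88%, near the 5.6% of all genes) and 0 rises among 17 (1 rise at an unadjusted p under 0.05). Their median was 0.18. IFIT2, an antiviral protein, stood at -0.57, -0.20 and -0.26 in the high and at 0.25, 0.33, 0.43, 0.48 and 0.53 in the low glands. The groups did not overlap (-0.75, SE 0.13, adjusted p = 0.00269), and the slope in the glands between had the same sign (-0.12, adjusted p = 0.0434). That slope lost its call without each of 15 of the 18 glands.

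Markers of macrophages and other myeloid cells were higher in 4 of 18 genes (22.2%, against 9.93% of all genes) and lower in 0 (0 also at an unadjusted p under 0.05), with a median of 0.57. LAPTM5, a lysosomal protein of blood-derived cells, stood at 0.68, 0.55 and 0.41 in the high and at -1.37, -0.88, -0.83, -0.93 and -0.55 in the low glands. The groups did not overlap (1.46, SE 0.27, adjusted p = 0.00354), and the slope in the glands between was 0.29 (adjusted p = 0.00743). The cysteine protease CTSS, the adaptor TYROBP and the growth factor receptor CSF1R were higher by 0.83, 0.85 and 0.75 (adjusted p = 0.0221, 0.0276 and 0.0399). CTSS lost its call without KA 2 or KA 9, TYROBP without either of these or AA 1, and CSF1R without each of 7 glands, with adjusted p up to 0.106, 0.114 and 0.136. Without KA 2 or without KA 9 the count was 1, and without AA 1 it was 2. The macrophage protein CD68 did not pass between the groups (0.86, SE 0.40, adjusted p = 0.136) but had a slope of 0.46 (adjusted p = 0.00142) in the glands between, where 4 of the 18 genes passed, LAPTM5, TYROBP, CSF1R and CD68, all positive. CD14, the lipopolysaccharide co-receptor of monocytes, had a difference of -0.35 (adjusted p = 0.296) and was named after its value was seen.

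Of 13 neutrophil genes, each by its representative probe set, 0 were called in limma in either direction (against 15.5% of all genes). At an unadjusted p under 0.05, 1 was higher and 1 lower, and the median was 0.04. A second, dim probe set of MPO, the peroxidase of neutrophil granules, was lower by -0.31 (adjusted p = 0.045), and it was named after its value was seen. The calgranulin S100A8 stood at -0.45, -0.09 and 0.87 in the high glands, a wide spread in which the low glands (-0.13 to 0.24) lay inside, with a difference of 0.09 (SE 0.77, adjusted p = 0.95). Its partner S100A9 had a difference of -0.11 (SE 0.18, adjusted p = 0.69). Both calgranulins were named after their values were seen.

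Of 21 T and natural killer cell genes 2 were higher (9.52%, near the 9.93% of all genes) and 0 lower, with a median of 0.35. At an unadjusted p under 0.05 in limma, 8 were higher and 2 lower. Every high gland lay above every low gland in 9 of the 21 and below in 0, against 13.9% and 9.82% of all genes. CD3G, a chain of the T cell receptor complex, stood at 0.24, 0.12 and 0.34 in the high and at -0.57, -0.82, -0.69, -0.51 and -1.23 in the low glands (1.00, SE 0.27, adjusted p = 0.0162). LCK, the kinase of that receptor, was higher by 0.62 (adjusted p = 0.0147), and of its 2 other probe sets 1 was higher (0.53, adjusted p = 0.039) and the other did not pass (-0.32). The count called in limma was 0 without KA 2 and 1 without KK 3 or KA 9. For CD4, whose representative was not called (-0.06), another probe set was lower (-0.39, adjusted p = 0.048). CD4 was named after its value was seen. Probe sets of TCRA, a T cell receptor gene outside the list, disagreed: some were lower, such as by -0.80 (adjusted p = 0.00367) and -0.61 (adjusted p = 0.0126). Another was higher by 0.89 (adjusted p = 0.0154). These values were picked after they were seen. Of 13 B and plasma cell genes 1 was higher (7.69%, near the 9.93% of all genes). This was BLNK (0.73, adjusted p = 0.0355), a call lost without KA 2, KA 9, KA 1, AA 1 or KA 4. The immunoglobulin heavy chain IGHM did not pass (1.20, SE 0.56, adjusted p = 0.139), and had a slope of 0.55 (adjusted p = 0.0211) in the glands between.

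Of 27 fibroblast and matrix genes 2 were higher (7.41%, near the 9.93% of all genes) and 0 lower, with a median of 0.24. At an unadjusted p under 0.05 in limma, 7 were higher and 2 lower. The 2 called higher were the microfibril protein FBN1 (0.70, SE 0.22, adjusted p = 0.0335) and the collagen VI chain COL6A1 (0.61, SE 0.20, adjusted p = 0.0455). COL6A1 stood at 0.35, 0.14 and 0.55 in the high and at -0.88, -0.19, -0.07, -0.17 and -0.02 in the low glands, so that AA 1 lay far below the rest. Its other probe sets pointed the other way: 1 was lower by -0.43 (adjusted p = 0.0329), and 1 did not pass (-0.20). FBN1 and COL6A1 each lost the call without 6 of the 8 glands. The count was 0 without KK 3, KA 2, KA 9 or AA 1, and 4 without KA 7, and with K alleles as a covariate it was 6 higher and 1 lower. The representatives of PDGFRA (-0.40) and COL6A2 (-0.16) were not called. Another PDGFRA probe set was higher (0.87, adjusted p = 0.0281), so its probe sets disagree. Another COL6A2 probe set was lower (-0.38, adjusted p = 0.0146). The main fibrillar collagens, named after their values were seen, did not pass: COL1A1 -0.14 (SE 0.17), COL1A2 0.23 (SE 0.26) and COL3A1 0.56 (SE 0.24). In the glands between, 4 of 27 (14.8%, against 2.26% of all genes) had positive slopes that passed, COL3A1 (0.20, adjusted p = 0.0305), DCN (0.19, adjusted p = 0.0422), DPT (0.27, adjusted p = 0.0491) and BGN (0.24, adjusted p = 0.0428). At an unadjusted p under 0.05 in limma, 13 of the 27 slopes were positive and 1 negative.

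Of 20 endothelial genes only the tight junction gene CLDN5 was higher (5%, against 9.93% of all genes). Its difference was 0.80 (adjusted p = 0.0226) and its slope in the glands between was -0.09 (adjusted p = 0.491). CLDN5 lost its call without KA 2, KA 9 or AA 1. Of 13 myoepithelial and smooth muscle genes, whose median was 0.52, 1 was higher (7.69%, near the 9.93% of all genes). This was the basal keratin KRT5 (0.84, SE 0.26, adjusted p = 0.0337), a call lost without KK 3, KA 2, AA 1, KA 4 or KA 11. Its second, dim probe set did not pass (-0.05). Of 11 adipocyte genes, 3 were lower and 1 higher (27.3% and 9.09%, against 5.6% and 9.93% of all genes), with a median of -0.25. The lipases LIPE and LPL, which release fatty acids from stored and from circulating triacylglycerol, were each lower by -0.63 (adjusted p = 0.00904 and 0.0436), and the glycerol channel AQP7 by -0.37 (adjusted p = 0.0319). LPL lost its call without each of 7 glands (adjusted p = 0.337 without KA 2), LIPE without KK 3 alone (adjusted p = 0.0518), and the lower count was 1 without KK 3, KA 2, AA 1 or KA 11. The higher gene was CFD, complement factor D (0.85, adjusted p = 0.0104), which stands in the complement list too and lost its call without KA 2 (adjusted p = 0.0892).

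Luminal epithelial markers were higher in 7 of 18 genes and lower in 1 (38.9% and 5.56%, against 9.93% and 5.6% of all genes). Their median was 0.52, and 11 of the 18 differences were positive. At an unadjusted p under 0.05 in limma, 9 were higher and 4 lower. KIT, a receptor of luminal progenitor cells, stood at 0.90, 0.91 and 1.09 in the high and at -1.76, -2.23, -0.37, -0.86 and -1.03 in the low glands. The high glands were alike and the low glands varied, and the difference was 2.22 (SE 0.46, adjusted p = 0.00528), while the 3 other KIT probe sets did not pass (-0.13, 0.09 and 0.40). The keratins KRT7, KRT8 and KRT19 were higher by 0.85, 0.59 and 0.68, the adhesion proteins EPCAM and CDH1 by 0.55 and 0.76, and the tight junction protein CLDN4 by 0.87. With each of the 8 glands left out in turn, KRT7, KRT8 and CLDN4 held their calls in 6 fits each. EPCAM held its call in 7 fits, CDH1 in 5 and KRT19 in 4. A second CDH1 probe set did not pass (0.43, adjusted p = 0.191). TJP3, a scaffold of tight junctions, was lower by -0.74 (SE 0.17, adjusted p = 0.00884), a call lost without KK 3 (adjusted p = 0.0515), and of its 2 other probe sets 1 was lower (-0.41, adjusted p = 0.0338) and 1 did not pass (0.21). Without KA 2 the list had 1 gene higher and 1 lower, and without KK 3 and without AA 1 it had 4 higher. In the glands between, slopes passed for CLDN4 (0.28, adjusted p = 0.00142), KRT18 (0.54, adjusted p = 0.00486), CDH1 (0.21, adjusted p = 0.0232) and EPCAM (0.13, adjusted p = 0.0364), all positive. Over the 18 genes 10 slopes were positive, with a median of 0.02.

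Of 18 genes of milk protein and lactose synthesis 0 were higher and 1 lower in limma (1 and 2 at an unadjusted p under 0.05). The share lower, 5.56%, is near the 5.6% of all genes, and the median was -0.07. The caseins and whey proteins, named after their values were seen, lay within narrow ranges. Casein CSN1S1 stood at 0.05, -0.002 and 0.01 in the high and at 0.15, 0.10, 0.10, 0.15 and 0.05 in the low glands (-0.09, SE 0.08, adjusted p = 0.487). The differences of CSN2 (-0.04, SE 0.07), CSN3 (0.03, SE 0.08), CSN1S2 (-0.005, SE 0.07), LALBA (-0.07, SE 0.08) and PAEP (0.02, SE 0.10) did not pass. All 6 are in the bright class, in which very strong signals can approach the ceiling of an array, so small differences may not be visible. The gene that passed was SLC2A1, the glucose transporter, which stood at -0.28, -0.78 and -0.0004 in the high and at 0.03, 0.44, 0.09, 0.27 and 0.09 in the low glands (-0.54, SE 0.15, adjusted p = 0.0209). KA 2 was the lowest gland, and without it the difference was -0.32 (adjusted p = 0.204). For GALK1, whose representative was not called (-0.11), another probe set was lower (-0.65, adjusted p = 0.00721). GALK1 was named after its value was seen. The slope of the hexokinase HK1 passed in the glands between (0.23, adjusted p = 0.0229).

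Of 15 genes of milk fat globule formation 3 were lower (20%, against 5.6% of all genes) and 0 higher (2 at an unadjusted p under 0.05). Their median was -0.19. RAB18, a small GTPase of lipid droplets, stood at -0.29, -0.90 and -0.51 in the high and at 0.26, 0.26, 0.35, 0.48 and 0.12 in the low glands (-0.86, SE 0.18, adjusted p = 0.00589). MFGE8, lactadherin of the globule membrane, stood at 0.15, -0.64 and -0.69 against 0.31, 0.26, 0.58, 0.45 and 1.08 (-0.93, SE 0.27, adjusted p = 0.0253), and the fatty acid translocase CD36 was lower by -0.42 (adjusted p = 0.0204). All 3 lost their calls without KA 2 (adjusted p = 0.0508, 0.124 and 0.205), and MFGE8 without KA 9 or KA 11 too. Xanthine dehydrogenase, XDH, which drives globule secretion, had a difference of 0.43 and did not pass. No slope of the 15 passed in limma in the glands between, with 1 positive and 3 negative at an unadjusted p under 0.05.

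Of 20 genes of fatty acid synthesis and desaturation, the elongases ELOVL5 (1.09, SE 0.27, adjusted p = 0.012) and ELOVL6 (0.76, SE 0.24, adjusted p = 0.0367) were higher, 0 were lower (3 at an unadjusted p under 0.05) and the median was -0.04. The share higher, 10%, is near the 9.93% of all genes. Without KK 3 neither elongase passed, and ELOVL6 lost its call without each of 5 others. The major enzymes FASN (-0.25, SE 0.15) and SCD (-0.01, SE 0.11), named after their values were seen, did not pass. Of 12 genes of triacylglycerol synthesis AGPAT5 was higher (1.06, adjusted p = 0.0127) and DGAT2 lower (-0.50, adjusted p = 0.0237), and neither passed without KK 3 or without KA 2. Each is 8.33% of the list, against 9.93% higher and 5.6% lower among all genes. The remaining 4 AGPAT5 probe sets had differences of 0.34 to 0.74 and did not pass. The genotyped gene DGAT1 had a difference of 0.32 (SE 0.21, adjusted p = 0.3).

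Of 18 genes of prolactin, growth hormone and insulin-like growth factor signalling, 2 were higher and 3 lower, with a median of -0.13. The shares were 11.1% and 16.7%, against 9.93% and 5.6% of all genes. IGF1, the growth factor itself, stood at -0.41, -0.51 and -0.42 in the high and at 0.28, 0.14, 0.09, 0.12 and 0.12 in the low glands. Each group was tight apart from AA 1, and the difference was -0.60 (SE 0.12, adjusted p = 0.00476). Of its 3 other probe sets 1 was lower too (-0.35, adjusted p = 0.017) and the remaining 2, both dim, did not pass (-0.24 and -0.11). The binding proteins IGFBP3 and IGFBP4, which hold the factor in the tissue, were higher by 1.24 (SE 0.34, adjusted p = 0.0181) and 1.15 (SE 0.39, adjusted p = 0.0482), and the second IGFBP3 probe set did not pass (0.73, adjusted p = 0.0657). IGFBP5, a binding protein of the regressing gland, was lower by -0.53 (SE 0.17, adjusted p = 0.0393). CISH, a feedback target of STAT5 downstream of prolactin, was lower by -0.70 (SE 0.21, adjusted p = 0.0276). IGFBP3 lost its call without KK 3 (adjusted p = 0.113), IGFBP4 without each of the 8 glands, IGFBP5 without each of 5 and CISH without KA 2, KA 9 or KA 11. The slope of IGFBP4 passed in the glands between (0.36, adjusted p = 0.0351).

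Genes of involution, the regression of the gland after milking stops, and its proteases were higher in 5 of 31 cases and lower in 1. The shares were 16.1% and 3.23%, against 9.93% and 5.6% of all genes, and the median was 0.11. The rises were CLU, LTF and CEBPD, given above, and the lysosomal proteases CTSS and CTSB (0.68, SE 0.19, adjusted p = 0.0234), and the fall was IGFBP5. CTSB lost its call without KK 3, KA 2 or AA 1, and of its 5 other probe sets 1 was higher (0.80, adjusted p = 0.0195) and 4 did not pass. Without KA 2 the count was 1 higher, CLU, and without AA 1 and KA 9 it was 2 and 3. The tissue inhibitor TIMP1 (0.44, SE 0.26) and the feedback inhibitor SOCS3 (-0.09, SE 0.12), named after their values were seen, did not pass.

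Genes of glutathione and oxidative stress defence were higher in 6 of 25 cases and lower in 1, with a median of 0.24. The shares were 24% and 4%, against 9.93% and 5.6% of all genes. NFE2L2, the transcription factor of the antioxidant response, stood at 0.43, 0.48 and -0.02 in the high and at -0.50, -0.21, -0.57, -0.13 and -0.45 in the low glands (0.67, SE 0.15, adjusted p = 0.00844). Its second, less bright probe set was lower by -0.38 (adjusted p = 0.0137), so the probe sets disagree. SOD2, described above, PRDX1 and PRDX6, which reduce peroxides, CAT, catalase, and MGST1 were the other rises. The other PRDX6 probe sets did not pass (0.37, -0.08 and 0.27). The glutathione peroxidase GPX2 was lower by -0.45 (SE 0.09, adjusted p = 0.00537). Without KA 2 the list had 0 genes higher and GPX2 lower, without KA 9 3 were higher and without KK 3 4. No slope of the 25 passed in limma in the glands between, with 7 positive and 1 negative at an unadjusted p under 0.05.

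Of 24 cell cycle genes 2 were higher (8.33%, near the 9.93% of all genes). These were the replication helicase subunits MCM6 and MCM7 (0.76 and 0.71, adjusted p = 0.0489 and 0.0153). MCM7 lost its call without KA 2 or KK 3, and MCM6 held its call in only 1 of 8 fits that left out a gland. A second MCM6 probe set did not pass (0.49, adjusted p = 0.0906). For MCM3, whose representative was not called, another probe set was lower (-0.46, adjusted p = 0.00941). Of 20 genes of the unfolded protein response, HERPUD1 and PDIA3 were higher (0.50 and 0.43, adjusted p = 0.0137 and 0.0305). The stress pseudokinase TRIB3 was lower (-0.74, adjusted p = 0.0416), and the median was -0.02. The shares, 10% higher and 5% lower, are near the 9.93% and 5.6% of all genes. HERPUD1, PDIA3 and TRIB3 each lost the call without KA 2, and HERPUD1 also without KA 9. With each of the 8 glands left out in turn, PDIA3 held its call in 3 fits and TRIB3 in 2.

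Among all probe sets with a gene symbol, the smallest p of the rises was that of ALDH3A2, a dehydrogenase of long-chain aldehydes, at 0.67, 0.81 and 0.32 in the high and -0.29, -0.54, -0.27, -0.54 and -0.49 in the low glands (1.02, SE 0.14, adjusted p = 0.00144). CTSC, the cysteine protease that activates granule proteases of leukocytes, stood at 0.63, 1.71 and 1.16 against -0.85, -0.67, -0.70, -1.00 and -0.79 (1.97, SE 0.32, adjusted p = 0.0022). CRYAB, a small heat shock protein, stood at 0.34, 1.82 and 0.92 against -1.00, -0.51, -1.12, -0.74 and -0.79 (1.86, SE 0.29, adjusted p = 0.0022). In these genes the groups lay well apart, and CTSC and CRYAB had slopes that passed in the glands between (0.35 and 0.24, adjusted p = 0.00497 and 0.0364). The other rises by this ranking were SAA3, CLU, NFKBIZ, FAM200C (0.84) and LONP2 (0.72), a peroxisomal protease, and DDB2, ADSL, GRHL1 and IP6K2. For these last 4 genes the probe set that passed (0.85, 0.63, 1.02 and 1.03) differed from the one that represents the gene (0.22, -0.09, 0.54 and 0.01), which did not pass, and another DDB2 probe set was lower (-0.50, adjusted p = 0.0063), so the probe sets disagree.

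The 12 falls with the smallest p were small in size, from -0.79 to -0.53. MXD3, a partner of MAX, stood at -0.46, -0.30 and -0.17 in the high and at 0.31, 0.37, 0.65, 0.27 and 0.79 in the low glands (-0.79, SE 0.13, adjusted p = 0.0022). The others were IFIT2, the calcium channel subunit CACNB1, the phosphodiesterase PDE1B, the lens crystallin CRYAA, the growth factor GDF7, the tubulin acetyltransferase ATAT1, the transcription factor PAX8, SBF1, the globin HBE1, the ciliary protein TEKT1 and the sterol-binding OSBP2. ATAT1 and CACNB1 have a brighter probe set that differed by -0.20 and 0.99, the latter being higher (adjusted p = 0.0151), so the probe sets of CACNB1 disagree in direction and the brighter one of ATAT1 did not pass. Of the dim probe sets 7.71% were lower and 1.25% higher, against 4.46% and 13.8% of the bright ones, so the balance of falls and rises differed with signal.

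Across the 18 glands between the thresholds, the genes whose values were most like those of CHI3L1 were CLU (r = 0.97, rho = 0.94), S100A2 (r = 0.91, rho = 0.90), LGALS3 (r = 0.89, rho = 0.78), SAA3 (r = 0.88, rho = 0.89) and CLDN4 (r = 0.87, rho = 0.80). These correlations are a description over 18 arrays that also share their array-wide signal, of which the dim median correlated with CHI3L1 at r = -0.62. S100A2, a calcium-binding protein of epithelial cells, stood at 1.12, 1.46 and 0.82 in the high and at -0.74, -0.23, -0.92, -1.15 and -0.35 in the low glands, and its slope was 0.45 (SE 0.05). In the left-out pair, AA 2 and AA 9, S100A2 was at 3.11 and 2.55 and LGALS3 at 2.98 and 2.48, above every other gland shown. The genes most opposite to CHI3L1 were ANTKMT (r = -0.85), CCDC88B (r = -0.82), CES2, a carboxylesterase (r = -0.80), SLC6A17 (r = -0.80) and KCNQ1, a potassium channel (r = -0.79). The falls with the smallest slope p were MTURN (-0.15), CES2 (-0.14), CAMTA2 (-0.16), DYRK3 (-0.18), SDHAF4 (-0.19) and a probe set of TCRA (-0.14). Of these, CES2 and CAMTA2 were also lower in the high glands (-0.63 and -0.65, adjusted p = 0.00837 and 0.0105). Another CAMTA2 probe set passed neither between the groups (-0.18, adjusted p = 0.562) nor by its slope (0.02, adjusted p = 0.883). The TCRA probe sets disagreed between high and low glands, as given above.

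**Figure D5:**
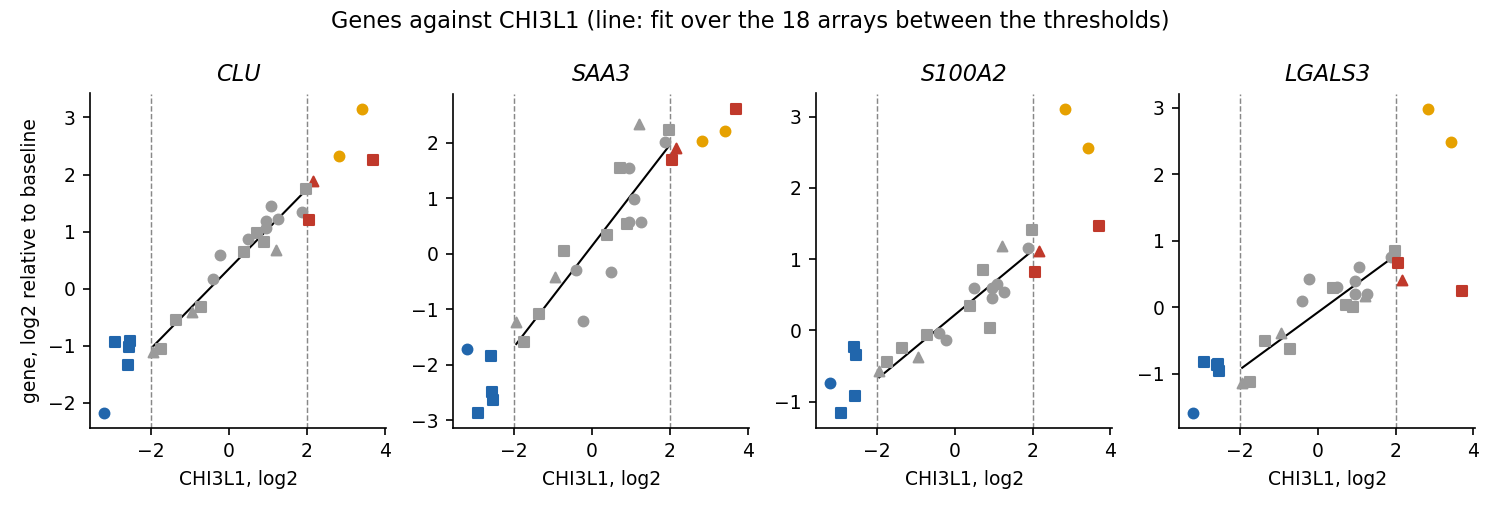
Log2 values of CLU, SAA3, S100A2 and LGALS3 (vertical axes) against the CHI3L1 log2 value (horizontal axes) in the 28 biopsies, with dashed lines at the thresholds of 2 and -2 and a line fitted over the 18 glands between them. Red, blue, grey and orange points are high, low, between and left-out glands, and circles, squares and triangles are AA, KA and KK, with slopes of 0.70, 0.91, 0.45 and 0.43.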

How the data were processed

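Values were deposited on a log2 scale, centred near 0 for each probe set; no label says how the zero was set, so absolute levels are unknown and precision depends on how many arrays a group has. The labels' protocols name Bioconductor 2.7 under R 2.13, and RMA and GCRMA appear in the submitters' processing notes without a role. Of 24128 probe sets, 112 controls and that of CHI3L1 stayed out of the tests, leaving 24015, with no filter on low values. The platform annotation paired 13292 probe sets with 1 gene symbol, 86 with several and 10638 with none, updated through RefSeq's ARS-UCD2.0 table. Where a gene had several probe sets, the brightest level class stood for it, then the plainest type. Level class was read from rounding steps, coarser for stronger signals.

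High, between and low glands each had a mean in limma 3.58.1 (R 4.3.3, lmFit and eBayes) over 26 arrays, so the 3 groups share 1 estimate of the spread, and high minus low was tested. A second fit took the slope on CHI3L1 over the 18 other arrays. Both were adjusted by Benjamini-Hochberg over probe sets at 0.05, and the scripts were tested on simulated arrays. Named genes were CHI3L1, its measured family and partners, 12 rises and 12 falls with the smallest p, 6 and 6 for the slope, up to 4 per list, and the 5 most and 5 least correlated, with others marked as named after their values were seen. Where a list's other called genes are named, they complete its count. The groups, gene lists and rules were chosen with earlier results of these data known. Array numbers (up to 42, and from 43) were read in titles, and their meaning is not stated there. Alternatives were quantile normalization, array centring, robust variances, array weights, K alleles, array number as a block, other choices of arrays and probe sets, a threshold of 0.10, and each array left out.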

Additional observations from a re-analysis of the deposited data

Results flagged for a closer look

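In the 5 low glands, 7 of 142 probe sets examined had 1 gland whose gap to the next exceeded 0.71 of the range, and chance alone gives such a gap in about 5% of groups. AA 1 stood apart for IGF1 (0.28, the others 0.09 to 0.14), LGALS3 (-1.59, the others -0.96 to -0.82) and COL6A1 (-0.88, the others -0.19 to -0.02). KA 1 stood apart for CFI (-1.24, the others -1.93 to -1.73) and for the brighter probe set of ATAT1 (-0.0429, the others 0.24 to 0.35). KA 7 stood apart for KRT8 (-0.66, the others -0.19 to -0.002), and KA 11 for the brighter probe set of CACNB1 (0.48, the others -0.56 to -0.26).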

How the results depend on the processing

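Against 1832 rises and 1612 falls between high and low glands, the counts were 1057 and 982 after quantile normalization, 5438 and 6148 with AA 2 and AA 9 kept as high glands, 384 and 178 among KA arrays alone, 2809 and 2851 at an adjusted p of 0.10, and 0 and 0 with the dim median as a covariate. With the 8 arrays alone 1017 fell. Leaving out 1 gland gave 467 to 1818 rises and 406 to 1529 falls, the lowest without KA 2 and the highest without KA 7; without KK 3 they were 929 and 693, without AA 1 1075 and 964, and without KA 9 1060 fell. Against 388 positive and 138 negative slopes, the counts were 182 and 25 with K alleles as a covariate, 3505 and 3880 over 26 arrays, 5456 and 6718 over 28 and 9 and 0 with the dim median, and quantile normalization gave 248 positive ones. Leaving out 1 gland gave 89 to 742 positive and 7 to 353 negative slopes, the lowest without KK 1 and the highest without AA 7. With the dim median, added after the data were seen, 0 of the 86 called list genes passed and 11 had the opposite sign, among them MCM6 (-0.0134), COL6A1 (-0.0485), CTSB (-0.0648), LPL (0.0624), CSF1R (-0.0244) and TYROBP (-0.0389), and the cause was not tested. No probe set called under both the reported and another setting run had opposite directions. The median of all probe sets moved by less than 0.1 log2 under quantile normalization and centring. No paired analysis was possible because the replicate numbers were given in accession order and pair no animals.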
